A study of Mus musculus with 4 samples.

Results

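The 10 genes described here encode the core enzymes and regulators of polyamine synthesis together with the proteins that make hypusine, a modified lysine of the translation factor eIF5A: Odc1, Srm, Sms, Sat1, Oaz1, Oaz2, Azin1, Dhps, Dohh and Eif5a. They were chosen by gene symbol, and all 10 were found by Ensembl ID among the 47729 gene rows of the count table. RNA was sequenced from C57BL/6 mouse CD4 T cells (labelled as spleen, while the study's general protocol starts from naive cells of spleen and lymph nodes) cultured toward induced regulatory T (iTreg) cells with 5 ng/mL TGF-β, 100 U/mL IL-2 and 5 µg/mL of each blocking antibody, one to IL-4 and one to IFN-γ. The comparison asks what added iron does in these cells: one group received ferrous sulfate (FeSO4, 50 µM) and the other PBS (Mock), both for 4 days, with 2 libraries in each. The study's protocol for these cultures also activates the cells with antibodies to CD3 and CD28. All 4 libraries therefore share the strain, the activation, the cytokines and the antibodies. The cells are an in vitro model rather than Treg cells taken from an animal.

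Polyamines are small, positively charged molecules that bind RNA and are needed by growing cells, and activated T cells make them in large amounts. Ornithine decarboxylase turns ornithine into putrescine, and the synthases Srm and Sms then build spermidine and spermine from it. Spermidine also donates the group that Dhps attaches to one lysine of eIF5A, and Dohh, an enzyme with an iron center, hydroxylates the product to give hypusine. In regulatory and helper T cells this route is known as a link between metabolism and lineage stability.

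The lysine that becomes hypusine was located in the coding sequence, since it is the site on which Dhps and Dohh act. It is codon 50 in Eif5a (chromosome 11, 154 codons) and in its paralog Eif5a2 (chromosome 3, 153 codons), shown in capitals within the 10 codons around it, 5′ to 3′, from GENCODE M1 transcripts.
Eif5a: tcgaagactggcAAGcatggccatgccaag
Eif5a2: tccaagactgggAAGcatggtcatgccaag
These stretches differ at 3 of 30 bases, and 0 of the 10 codons encode another amino acid. The readout below is RNA, so it carries no measure of how much eIF5A was modified.

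The promoters were searched for the E-box CACGTG, which Myc and its partner Max are known to bind and which reads the same on both strands. RefSeq promoter windows (GRCm38.p6, 250 bases before to 50 after a transcription start) existed for 8 of the 10 genes, 14 windows in all, and Srm and Azin1 had no entry. The letters occurred in 5 of these windows, in Dohh, Eif5a and Sms. Among all promoters in the table, 7.15% of 32851 windows and 8.09% of 27025 genes held it. Each match is shown in capitals with the bases around it, 5′ to 3′ on the strand of the gene.
Dohh, chr10:81384424-81384453, plus strand: gcccagcatggtCACGTGgccatcaagatg
Eif5a, chr11:69921443-69921472, minus strand: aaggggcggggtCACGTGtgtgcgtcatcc
Eif5a, chr11:69920791-69920820, minus strand: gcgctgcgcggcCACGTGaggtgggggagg
Sms, chrX:157492466-157492495, minus strand: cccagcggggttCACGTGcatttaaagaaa
In Dohh the match begins at position 3, counting the first transcribed base as 1. The first Eif5a match lies 74 or 185 bases upstream, depending on which of 2 starts is used, the second 178 bases upstream of a further start, and the Sms match 196 bases upstream. A match describes the letters only, and binding was not measured.

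The 10 genes took 0.265 to 0.283% of the reads assigned to genes, which numbered 35183187 to 40859178 in a library. The CD4 T and Treg cell markers Cd3e, Cd4, Foxp3 and Il2ra were present in every library with 11136 to 66329 reads each. Foxp3, the factor that defines Treg cells, was itself lower with iron: 587 and 693 CPM under Mock against 376 and 472 CPM under FeSO4 (log2 fold change -0.59 ± 0.09, SE, edgeR adjusted p = 0.000223). By intracellular staining of the protein in iTreg cultures, the study reports little effect of iron sulfate on Foxp3 induction. The rest of this marker list did not share the lower direction of Foxp3 RNA. Once scaled to library size, Cd3e and Cd4 were higher with iron, without overlap between groups, and Il2ra overlapped. Summed over the list, the groups overlapped, with 2923 and 3189 CPM under Mock and 2852 and 3051 CPM under FeSO4. Summed markers of other cells were low: 2.38 to 3.38 CPM (the usual read count scaled to library size) for 4 B cell genes, and 0 for both NK cell genes. Groups were apart for 3 marker lists. The 2 CD8 T cell genes summed to 9.81 and 9.04 CPM under Mock and 9.95 and 11.02 CPM under FeSO4. Most of these reads were of Cd8b1, with 304 to 361 in a library. Cd8a overlapped between groups, with 94 and 27 reads under Mock and 25 and 47 under FeSO4. The 5 myeloid genes summed to 4.56 and 0.861 CPM under Mock, where Lyz2 had 164 reads in replicate 1 and 8 in replicate 2, and to 0.379 and 0.810 CPM under FeSO4, where it had 0. Adgre1, of the same list, overlapped between groups, with 8 and 28 reads under Mock and 12 and 29 under FeSO4. The erythroid list had 20.9 and 25.9 CPM under Mock and 34.5 and 39.8 CPM under FeSO4 over the 4 of 6 genes found. The part of these differences in the results below was not tested. In bulk RNA, fewer cells that express a gene and less RNA per cell cannot be told apart.

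iTreg cells expressed all 10 genes at levels well above the detection limit, with 1107 to 40696 reads per gene and library. Per kilobase of exon, the order ran from the antizyme Oaz1 and Eif5a through Odc1 to the 7 remaining genes. Oaz1 stood at a mean of 698 RPKM (CPM per kilobase of exon, range over the 4 libraries 649 to 746), Eif5a at 428 (409 to 458) and Odc1 at 205 (188 to 212). Srm followed at 47.4 RPKM (39.1 to 59.7), then Sat1 at 23.2, Azin1 at 19.1, Dhps at 16.8, Dohh at 14.6, Oaz2 at 12.03 and Sms at 11.8. Ranges of neighbors in this order did not overlap, except those of Oaz2 and Sms. Thus transcripts of Oaz1, which inactivates ornithine decarboxylase, were more abundant than those of the enzyme itself in each library, and both eIF5A-modifying enzymes lay far below their substrate. Exon lengths are those of all annotated transcripts of a gene combined and were taken from GENCODE M1, so the level of a gene that uses only its short transcripts is understated.

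**Figure D1:**
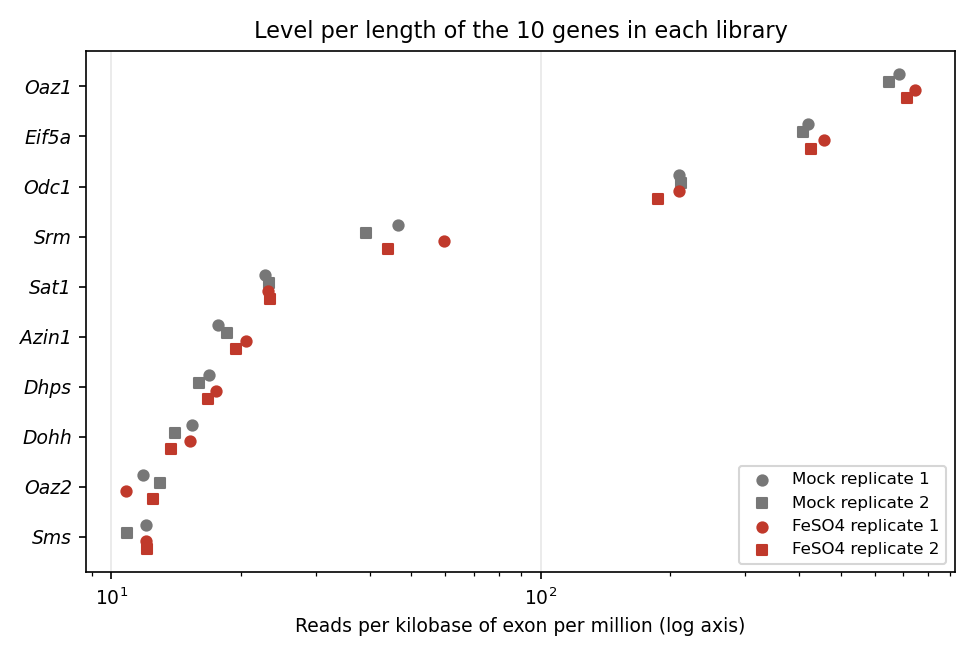
Level per length of each gene, in CPM per kilobase of exon on a log axis, with 1 point per library (grey, Mock; red, FeSO4; circles, replicate 1; squares, replicate 2). Oaz1, Eif5a and Odc1 lie between 188 and 746, above the other 7 genes in every library, and the groups lie close together for each gene.

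None of the 10 genes differed between FeSO4 and Mock past the threshold in the unpaired fit, and 1, Srm, did when libraries were paired by replicate number. At an adjusted p under 0.05 in the edgeR quasi-likelihood test, 0 of 10 were higher and 0 were lower in FeSO4, while 10.9% of all 13732 tested genes were called higher, 9.17% lower and 20% in either direction (1491 and 1259 genes, which became 893 and 710 without FeSO4 replicate 1, and 980 and 1810 when scaled by library size alone). Srm was called, as 1 of the 10, with the replicate number as a block on all 4 libraries (edgeR adjusted p = 0.00758 against 0.0959 without it), and also without Mock replicate 1 and without FeSO4 replicate 2. The study describes its samples as pairs, but whether the numbers mark those pairs is not given in the sources used here. At an unadjusted p under 0.05, 2 of the 10 passed, Srm and Oaz1, compared with 32.3% of all tested genes. DESeq2 and limma-voom called 0 of the 10 as well. The estimates were small as well as uncalled: 9 of the 10 had an absolute log2 fold change under 0.15, as did 40.1% of all tested genes, and the median absolute log2 fold change was 0.09 against 0.20 over all tested genes. These comparisons were not matched for expression level. The 10 genes lay at percentiles 59.7 to 99.3 of mean CPM among tested genes. Their SEs were 0.060 to 0.112, against a median of 0.113 over all tested genes. For the 9 genes with an estimate under 0.15, the whole 95% interval lay within 0.3 on either side of 0. A count of 0 in 2 against 2 libraries does not show equality, and these intervals give the sizes that remain possible.

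**Figure D2:**
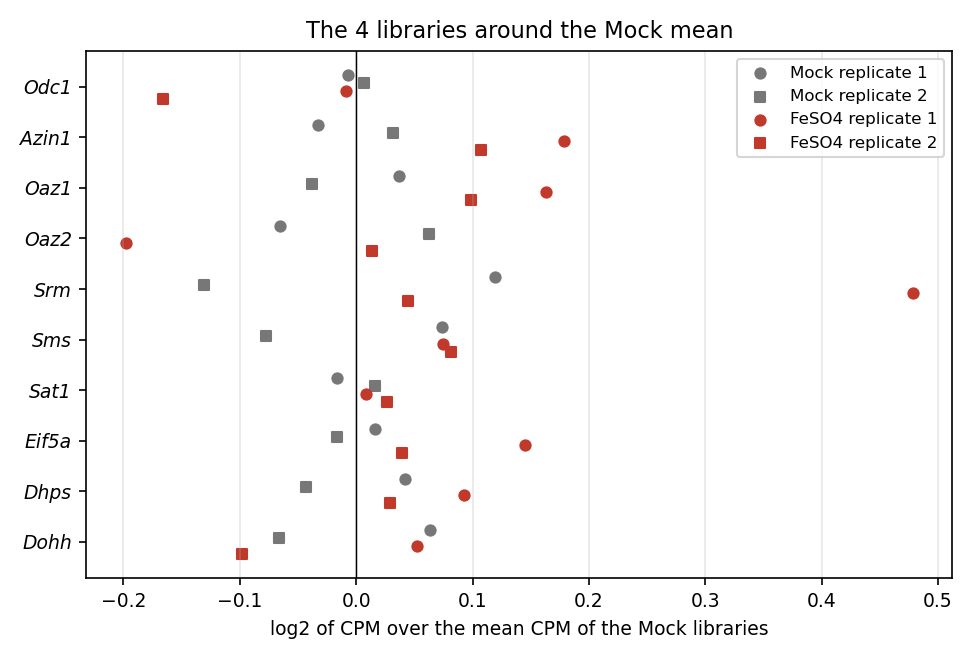
log2 of each library's CPM over the mean CPM of the 2 Mock libraries, by gene (grey, Mock; red, FeSO4; circles, replicate 1; squares, replicate 2). The point farthest from the Mock mean is Srm in FeSO4 replicate 1, at 95.4 CPM against a Mock mean of 68.5 CPM, and the lowest is Oaz2 in FeSO4 replicate 1, at 32.3 CPM against a Mock mean of 37.1 CPM.

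Odc1 encodes ornithine decarboxylase, the short-lived enzyme that commits ornithine to polyamines (chr12:17544808-17551502, plus strand; this and all gene positions are on GRCm38.p6). Its level was 535 and 540 CPM under Mock and 534 and 479 CPM under FeSO4. FeSO4 replicate 2 was the low sample, and FeSO4 replicate 1 fell just under both Mock libraries. The log2 fold change was -0.09 ± 0.06 (SE, 95% interval -0.22 to 0.05, edgeR adjusted p = 0.386). The means were 538 ± 3.55 CPM for Mock (SD, n = 2) and 507 ± 39.0 CPM for FeSO4 (SD, n = 2), so nearly all of the difference came from 1 library, without which the log2 fold change was -0.01, while it was -0.16 without the other FeSO4 library.

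The regulators of Odc1 act on its protein. Antizymes bind ornithine decarboxylase and send it to the proteasome, and polyamines raise antizyme synthesis through a ribosomal frameshift, so that transcript levels see only part of this control. Oaz1, the main antizyme (chr10:80826656-80829290, plus strand), had 733 and 695 CPM under Mock and 799 and 765 CPM under FeSO4. Both FeSO4 libraries lay above both Mock libraries, and the log2 fold change was 0.13 ± 0.06 (SE, 95% interval 0.01 to 0.26), a difference with an unadjusted p of 0.0421 in edgeR that did not pass adjustment (adjusted p = 0.138). Oaz2, a second antizyme (chr9:65676548-65690300, plus strand), had 35.4 and 38.7 CPM under Mock and 32.3 and 37.4 CPM under FeSO4. Here the groups overlapped, with a log2 fold change of -0.09 ± 0.10 (SE, 95% interval -0.29 to 0.12) that was 0.02 without FeSO4 replicate 1.

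Azin1 encodes antizyme inhibitor, a protein without decarboxylase activity that resembles ornithine decarboxylase and frees it from antizyme (chr15:38487430-38519294, minus strand). It had 111 and 116 CPM under Mock and 128 and 122 CPM under FeSO4. The groups did not overlap, and the log2 fold change was 0.14 ± 0.07 (SE, 95% interval -0.00 to 0.29, edgeR adjusted p = 0.159). The antizyme Oaz1 and the antizyme inhibitor thus had estimates of similar size and the same sign, neither of which was called, and with library size scaling alone they were 0.07 and 0.08.

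Srm encodes spermidine synthase (chr4:148591513-148594619, plus strand) and had the largest estimate of the 10. Its level was 74.4 and 62.6 CPM under Mock and 95.4 and 70.6 CPM under FeSO4. FeSO4 replicate 1 was high, while FeSO4 replicate 2 lay between the Mock libraries, so the groups overlapped. The log2 fold change was 0.28 ± 0.11 (SE, 95% interval 0.04 to 0.51, unadjusted p = 0.0248, edgeR adjusted p = 0.0959), and 37.1% of all tested genes had a larger absolute value. With the replicate number as a block the log2 fold change of Srm was 0.27 and passed the threshold (edgeR adjusted p = 0.00758). It was 0.36 between the libraries numbered 1 and 0.18 between those numbered 2. Single libraries also decided this call: the log2 fold change was 0.40 without Mock replicate 1 (adjusted p = 0.0244), 0.48 without FeSO4 replicate 2 (adjusted p = 0.000698), 0.16 without Mock replicate 2 (adjusted p = 0.427) and 0.05 without FeSO4 replicate 1 (adjusted p = 0.839).

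Sms, spermine synthase, follows Srm in the pathway (chrX:157443851-157492287, minus strand). It had 72.4 and 65.2 CPM under Mock and 72.4 and 72.8 CPM under FeSO4. Mock replicate 2 was the low sample and the other 3 libraries were nearly equal, with a log2 fold change of 0.08 ± 0.08 (SE, 95% interval -0.09 to 0.24) that was 0.15 without Mock replicate 1 and 0.01 without Mock replicate 2. Sat1, the acetyltransferase that marks spermidine and spermine for export or back-conversion, lies 2.23 Mb away on the same chromosome (chrX:155213126-155216449, minus strand). Its level was 63.1 and 64.6 CPM under Mock and 64.2 and 65.0 CPM under FeSO4. Sat1 had the smallest estimate of the 10, a log2 fold change of 0.02 ± 0.08 (SE, 95% interval -0.14 to 0.18). It was -0.01 without Mock replicate 1. Upper quartile scaling put it at -0.00 and library size alone at -0.05. These scalings also moved the median of all tested genes, to -0.02 and -0.07, so the sign changes are not particular to Sat1.

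None of the 3 hypusine genes was called, where 20% of all tested genes were. Eif5a, the factor that carries hypusine and helps ribosomes through difficult stretches of peptide (chr11:69916712-69921958, minus strand), had 995 and 973 CPM under Mock and 1088 and 1012 CPM under FeSO4. Both FeSO4 libraries lay above the Mock libraries, by 0.09 ± 0.06 on the log2 scale (SE, 95% interval -0.03 to 0.22, edgeR adjusted p = 0.302), an estimate that fits leaving out FeSO4 replicate 1 or FeSO4 replicate 2 put at 0.04 and 0.15, respectively. Dhps, deoxyhypusine synthase (chr8:85071486-85075162, plus strand), had 39.3 and 37.1 CPM under Mock and 40.7 and 39.0 CPM under FeSO4. The groups overlapped, and the log2 fold change was 0.06 ± 0.09 (SE, 95% interval -0.12 to 0.25). It ran from 0.02 without Mock replicate 2 to 0.10 without Mock replicate 1. Library size scaling alone put it at -0.00, but also moved the median of all tested genes to -0.07. Dhps shares exon bases with Wdr83 on the opposite strand, which had 1192 to 1537 reads, and without a stated strand setting reads of the pair may not be told apart.

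Dohh, deoxyhypusine hydroxylase, is the one enzyme of the 10 that itself uses iron (chr10:81384434-81388352, plus strand, 555 kb from Oaz1). Its level was 49.2 and 45.0 CPM under Mock and 48.9 and 44.0 CPM under FeSO4. The spread between replicates within each group exceeded the difference between groups. The log2 fold change was -0.02 ± 0.09 (SE, 95% interval -0.21 to 0.16, edgeR adjusted p = 0.901), which as a ratio bounds a change at 13.4% lower to 12.1% higher. Its direction depended on the library, with 0.04 without Mock replicate 1 and 0.06 without FeSO4 replicate 2.

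Across the 10 genes, 7 estimates were positive and 3 negative, with a median log2 fold change of 0.07 against -0.00 over all tested genes. With library size scaling alone the split was 5 and 5 and the median 0.00, against -0.07 over all tested genes. Both FeSO4 libraries lay above both Mock libraries for 4 of the 10 (Sms, by a margin under the precision printed, and Oaz1, Azin1 and Eif5a), where 30.1% of all tested genes did. Both lay below for 1 of the 10, Odc1, where 29.4% of all tested genes did. The other 5 genes overlapped. When libraries were compared by replicate number, the sign was the same in both pairs for all 10 genes, as it was for 72.3% of all tested genes. The difference was under 0.01 on the log2 scale in the first pair for Odc1 (-0.00) and Sms (0.00).

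The other genes that make, break down, supply or carry polyamines included called genes in both directions. Of 41 such genes on 4 lists, 40 were found and 28 passed the filter on low counts. Among these 28, 6 were higher (10.9% of all tested genes were), 3 were lower (9.17% of all) and 19 were not called, so that 32.1% were called in either direction against 20% of all tested genes. Their median log2 fold change was 0.06. The lists were chosen with earlier results of these data known, so the shares called are a description only. The lower genes include Slc22a2, which passed the filter on low counts only through its Mock libraries. With at least 10 counts in every library, 6 were higher and 2 lower. The counts higher and lower were 3 and 2 without Mock replicate 1, 3 and 1 without FeSO4 replicate 1, and 3 and 1 without FeSO4 replicate 2. Genes were named when called, and Amd1, Paox, Smox and Eif5a2 in any case.

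In synthesis and catabolism, 2 of 4 tested genes were higher, 1 was lower and Eif5a2 was not called (20% of all tested genes were called). Smox, spermine oxidase, breaks spermine down to spermidine and releases hydrogen peroxide. It had 66.2 and 65.8 CPM under Mock and 50.0 and 53.0 CPM under FeSO4, a log2 fold change of -0.36 ± 0.08 (SE, edgeR adjusted p = 0.00399), which was -0.31 without FeSO4 replicate 1 and then just missed the threshold (adjusted p = 0.053). Paox, the oxidase that acts on the acetylated products of Sat1, went the other way, with 11.5 and 13.6 CPM under Mock and 18.3 and 16.4 CPM under FeSO4 (log2 fold change 0.47 ± 0.13, SE, edgeR adjusted p = 0.0208). The Paox call was lost without Mock replicate 1 (0.35) and without FeSO4 replicate 1 (0.39). When all genes of at least 1 count were tested, the log2 fold changes were -0.35 for Smox and 0.47 for Paox. Neither then passed the threshold (edgeR adjusted p = 0.0503 and 0.111). Sat1, which makes the substrates of Paox, had the smallest estimate of the 10 genes.

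Amd1, which makes the decarboxylated S-adenosylmethionine that both Srm and Sms consume, had 50.5 and 51.8 CPM under Mock and 61.8 and 59.0 CPM under FeSO4. The groups did not overlap, and the log2 fold change was 0.24 ± 0.08 (SE, edgeR adjusted p = 0.0407). This call was close to the threshold and was made under 5 of 13 alternatives, with adjusted p from 0.0209 to 0.246. DESeq2 on all 4 libraries did not make it (adjusted p = 0.0586), and it was lost when any one library was left out, with log2 fold changes of 0.21 to 0.28. Amd1 has the near-identical copy Amd2, so its count may depend on how shared reads were treated. Eif5a2, the paralog of Eif5a, had 36.4 and 37.4 CPM under Mock and 35.8 and 35.0 CPM under FeSO4 (log2 fold change -0.06 ± 0.09, SE).

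In the supply of ornithine from arginine and proline, 1 of 8 tested genes was higher and 1 was lower. That is 25% called, against 20% of all tested genes. Aldh18a1, which makes the precursor of both proline and ornithine, had 198 and 201 CPM under Mock and 175 and 157 CPM under FeSO4 (log2 fold change -0.26 ± 0.07, SE, edgeR adjusted p = 0.0109). Without FeSO4 replicate 2 its log2 fold change was -0.19 and no longer passed. Pycr1, a proline-making reductase, rose by 1.75 ± 0.40 (SE) on the log2 scale (edgeR adjusted p = 0.00499). Its counts were low, with 31 and 26 reads in Mock and 65 and 101 reads in FeSO4. Pycr1 was not called without FeSO4 replicate 2 (1.45). When all genes of at least 1 count were tested, the log2 fold changes were -0.26 for Aldh18a1 and 1.75 for Pycr1. Neither then passed the threshold (edgeR adjusted p = 0.0938 and 0.0589).

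In the methionine cycle and salvage route, which provides and recovers the propylamine donor, 1 of 10 tested genes was higher and 0 were lower. Of all tested genes, 20% were called in either direction. Ahcy, which clears S-adenosylhomocysteine, had 521 and 527 CPM under Mock and 829 and 743 CPM under FeSO4, a log2 fold change of 0.58 ± 0.06 (SE, edgeR adjusted p = 8.16e-06). Among genes of polyamine transport, 2 of 6 tested were higher and 1, Slc22a2, was lower, having passed the filter through its Mock libraries alone. Slc3a2, a heavy chain of amino acid transporters that has also been tied to polyamine export, had 135 and 137 CPM under Mock and 174 and 170 CPM under FeSO4 (log2 fold change 0.34 ± 0.06, SE, edgeR adjusted p = 0.00142). The other 2 calls rested on few reads: Slc12a8 with 21 and 16 in Mock and 44 and 47 in FeSO4 (log2 fold change 1.501 ± 0.47, SE), and Slc22a2 with 30 and 18 in Mock and 4 and 2 in FeSO4 (-2.74 ± 0.82, SE). Their edgeR adjusted p was 0.0328 and 0.0255. A filter of at least 10 counts in every library removed Slc22a2, so its call is a description only. The Slc12a8 call was lost without any one library (log2 fold changes of 1.30 to 1.72), and that of Slc22a2 without Mock replicate 1 (-2.32), FeSO4 replicate 1 (-3.35) or FeSO4 replicate 2 (-2.28). DESeq2 on all 4 libraries called neither (adjusted p = 0.0739 for Slc12a8 and 0.0584 for Slc22a2). Of the 9 calls on these lists, those of Ahcy and Slc3a2 were made under all 13 alternatives.

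**Figure D3:**
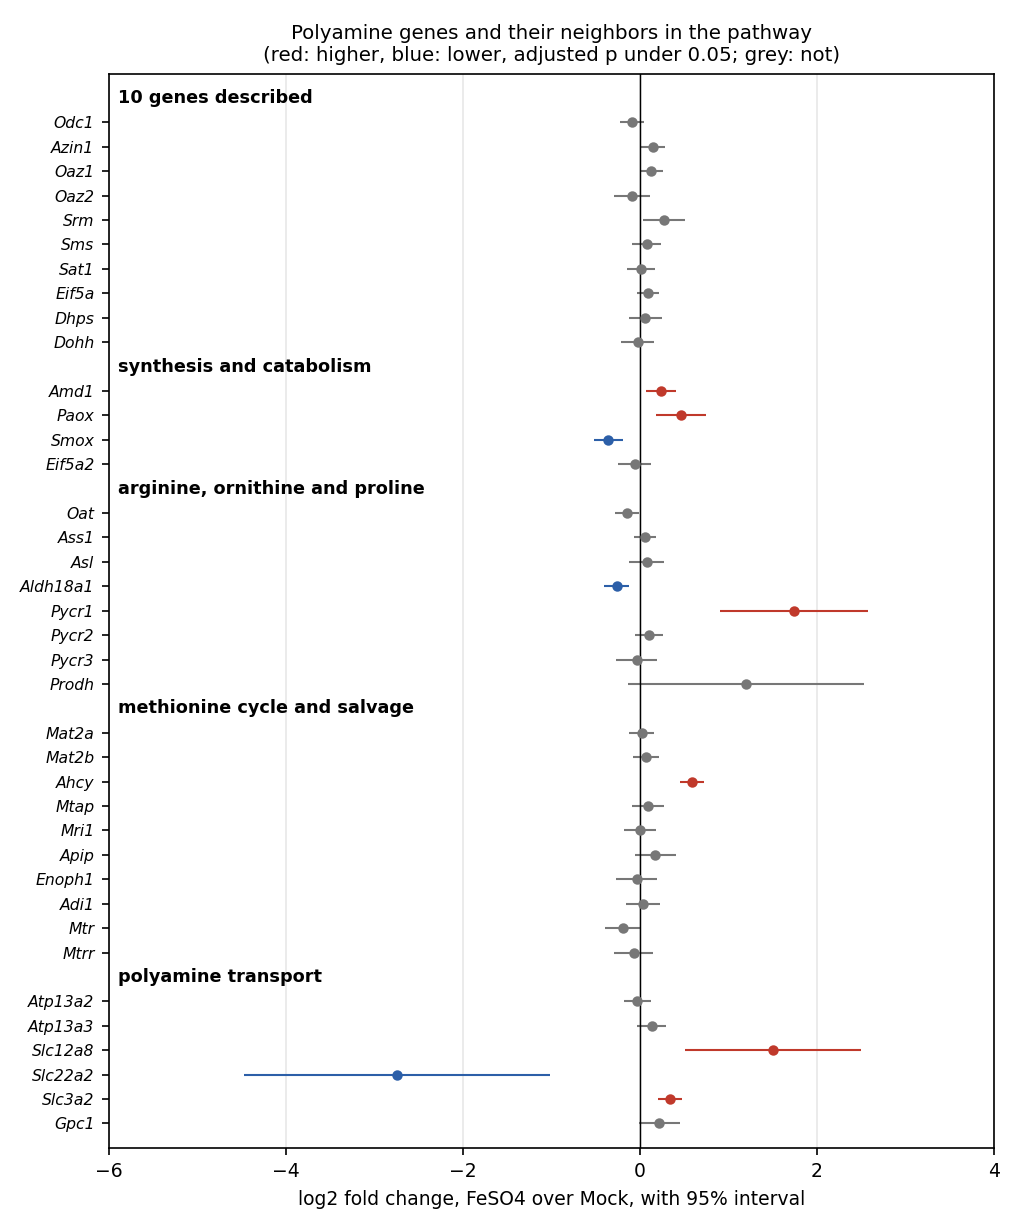
log2 fold change of FeSO4 over Mock with its 95% interval for the 10 genes and for the 28 tested genes of 4 neighboring lists (red, higher; blue, lower at an adjusted p under 0.05; grey, not called). The intervals of 8 of the 10 genes hold 0, all but those of Srm and Oaz1, and 9 of the 28 others are called.

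Ratios between genes within a library do not depend on how libraries were scaled, and 8 were computed along the pathway from read counts. With 2 libraries against 2 the smallest two-sided p an exact permutation test can give is 0.333, so they are a description. Groups were apart for 5 ratios, with FeSO4 below Mock in each, and overlapped for 3. The ratios share genes, Odc1 being in 4 of them, so they are not separate observations, and single genes were often apart too (30.1% of all tested genes above and 29.4% below). Reads of Odc1 per read of Azin1 were 4.84 and 4.67 in Mock and 4.17 and 3.93 in FeSO4, a mean log2 difference of -0.23. Reads of Odc1 per read of Oaz1 were 0.730 and 0.777 in Mock and 0.668 and 0.626 in FeSO4, a mean log2 difference of -0.22. Reads of Odc1 were thus lower relative to both its antizyme inhibitor and its main antizyme in the FeSO4 libraries, though none of these genes was itself called. The pooled SD between replicates was 0.05 for the ratio to Azin1 and 0.06 for that to Oaz1, on the log2 scale. It rests on 2 libraries per group. Ratios of other gene pairs were not computed, so how often differences of this size occur is not known.

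Relative to Oaz2, Odc1 showed no such pattern, with 15.1 and 13.9 in Mock and 16.5 and 12.8 in FeSO4 (mean log2 difference 0.00). The ratio of Odc1 to Sat1 was 8.47 and 8.36 in Mock and 8.32 and 7.37 in FeSO4, a mean log2 difference of -0.10 that was -0.02 without FeSO4 replicate 2. Srm to Sms was 1.03 and 0.960 in Mock and 1.32 and 0.970 in FeSO4, so that only FeSO4 replicate 1 stood apart, and the mean log2 difference of 0.19 became -0.03 without it.

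Within the hypusine branch, Dohh per Eif5a was 0.0495 and 0.0462 in Mock and 0.0449 and 0.0435 in FeSO4, a mean log2 difference of -0.11 that was -0.07 without Mock replicate 1 and -0.16 without Mock replicate 2. Dohh per Dhps was 1.25 and 1.21 in Mock and 1.20 and 1.13 in FeSO4, a mean log2 difference of -0.08 that ranged from -0.13 without FeSO4 replicate 1 to -0.04 without FeSO4 replicate 2. Dhps per Eif5a overlapped between groups. The lower ratio of Dohh to Eif5a combined a positive estimate for Eif5a with one near 0 for Dohh, neither of which was called.

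**Figure D4:**
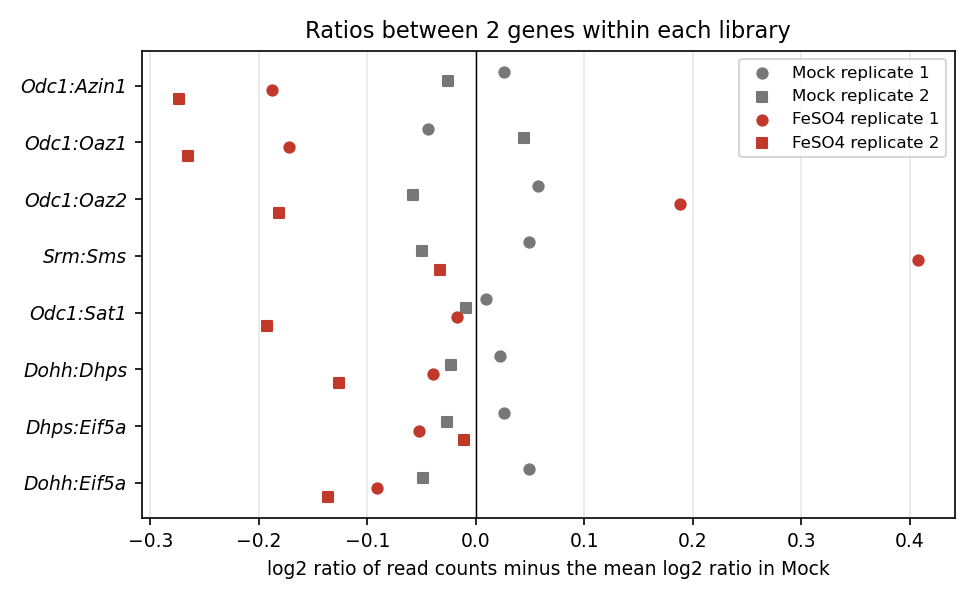
log2 ratio of the read counts of 2 genes in each library, minus the mean log2 ratio of the Mock libraries (grey, Mock; red, FeSO4; circles, replicate 1; squares, replicate 2). FeSO4 libraries lie below both Mock libraries for 5 of the 8 ratios, most clearly for Odc1 to Azin1 and Odc1 to Oaz1.

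Near-identical copies could affect a few of the counts. Coding sequences aligned elsewhere in the genome at 95% identity or more over at least 100 bases at 9 loci for Odc1, 4 for Sms, 2 for Eif5a and 1 each for Oaz1 and Sat1, and at none for the other 5 genes. Rows of their annotated pseudogenes held at most 0.484% of the reads of the gene itself, the highest for Oaz1 in FeSO4 replicate 2. Reads that aligned to more than 1 place were set aside in the table and are not in these counts.

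**Figure D5:**
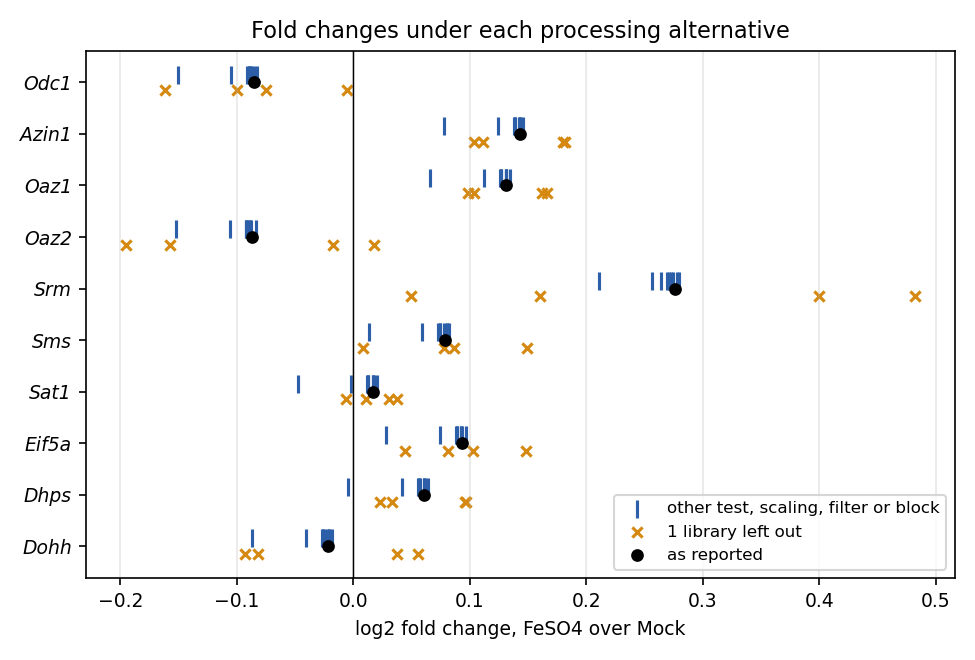
log2 fold change of FeSO4 over Mock for each gene as reported (black), under another test, scaling, filter or the replicate block (blue bars), and with 1 library left out (orange crosses). Srm moves the most, from 0.05 to 0.48, and Sat1, Oaz2, Dhps and Dohh lie on both sides of 0.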

How the data were processed

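RNA-seq of 4 libraries was analyzed, 2 per group, with groups from the labels. The authors deposited 1 table of raw counts, whole reads per Ensembl ID with no normalization. The submitters' processing notes name Trim Galore 0.6.7, STAR 2.7.9a, featureCounts and mm10, while the methods name mm9. The table ends with 5 rows of unassigned reads in the style of another counter, which held 15.9 to 17.3% of reads and were left out. The strand setting is not given in the sources used here.

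The members and lists were chosen with earlier results of these data known. Counts were tested in R 4.3.3 with edgeR 4.0.16 (filterByExpr by group, TMM scaling, quasi-likelihood F test, Benjamini-Hochberg adjustment over all 13732 genes kept), and the procedure was tested on simulated data. CPM uses TMM-scaled library sizes. A count of 3, the limit that a count of 0 allows, is 0.0717 to 0.0876 CPM, which covers counting error only. Beyond the 10 members, genes of 4 lists were named when called, at most 4 per list, with Amd1, Smox, Paox and Eif5a2 in any case. Alternatives used DESeq2 1.42.0, limma 3.58.1 (voom), other scalings and filters, the study's threshold, a replicate block and each library left out. Near copies were searched with BLAST 2.17.0.

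The methods describe a paired design, with 2 sample pairs that came from separate experiments, but do not say that the replicate numbers in the labels mark the pairs. Deviations of same-numbered libraries correlated at r = 0.03 over all tested genes and 0.22 over 8522 genes of at least 10 CPM, across genes, which are not independent. The block was kept as an alternative, and its value is given where it changes a call. Nothing in the labels shows that libraries of a group came from separate animals, so p-values measure the spread between these libraries. Some genes of the lists are not reported here by name.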

Additional observations from a re-analysis of the deposited data

Results flagged for a closer look

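Reads that aligned to more than 1 place were set aside in the table and enter none of the comparisons. They made up 4.42 and 4.27% of reads in Mock and 4.60 and 4.62% in FeSO4, so both FeSO4 libraries lay above both Mock libraries, by 0.264 percentage points on average. Which genes these reads came from is not recorded in the table, so their part in the counts of Odc1, Sms, Oaz1, Sat1 and Eif5a, which have near copies, was not tested.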

How the results depend on the processing

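The count of members lower in FeSO4 was 0 under all 14 alternatives. The count higher was 0 under 11 and 1 (Srm) with the replicate block and in 2 fits without a library, a range of 0 to 1 over the leave-one-out fits. The block moved Srm past the threshold (log2 fold change 0.27, adjusted p = 0.00758) and changed no other member's call. Among all tested genes, the count higher was 980 with library size only, 524 with all genes of at least 1 count, 641 at the study's threshold and 893 to 1199 without 1 library. The count lower was 304, 787 and 710 to 1158 for the last 3. Among the fits without 1 library, the fewest calls in each direction came without FeSO4 replicate 1. The balance of higher to lower calls, 1491 to 1259, was 980 to 1810 with library size only and 1285 to 1390 with upper quartile scaling. Other pathway genes higher numbered 2 with all genes of at least 1 count, 3 at the study's threshold and 3 to 5 without 1 library, and lower 0, 1 and 1 to 3. Testing low-count genes raised the number of genes to 22164. The cause of the other shifts was not tested.

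The signs of Sat1, Oaz2 and Dohh, with estimates near 0, changed when 1 library was left out. The log2 fold change of Sat1 was -0.0017 with upper quartile scaling, -0.0478 with library size only and -0.0059 to 0.0373 without 1 library (negative without Mock replicate 1). That of Oaz2 was -0.195 to 0.0174 (positive without FeSO4 replicate 1) and that of Dohh -0.0933 to 0.0558 (positive without Mock replicate 1 or FeSO4 replicate 2) without 1 library. That of Dhps was -0.0042 with library size only. Library size and upper quartile scaling also moved the median of all tested genes, to -0.0655 and -0.0195. Sign changes under these scalings are therefore not particular to a gene. Odc1, Srm, Sms, Oaz1, Azin1 and Eif5a kept their sign under all 13 alternatives. In fits without a library, the lone sample of its group is assumed to vary like the other group. The legacy quasi-likelihood fit was added after seeing the data. With 2 libraries per group, the 95% intervals printed with each member give the sizes of change left possible.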
